A study of Mus musculus with 12 samples.

Results

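The comparison described here is the effect of diet on gene expression in mouse liver that was shared by 2 genotypes, taken as the mean of both HF groups minus the mean of both LF groups with genotype kept in the model. All 12 RNA-seq libraries of the study entered it, 6 on each diet. The groups were HF floxed (mice with a floxed gene for thrombospondin 1, TSP1, fed the HF diet), HF knockout (mice lacking TSP1 in macrophages, fed the HF diet), LF floxed and LF knockout, with 3 libraries each. All mice were of the mixed strain 129/B6, were 10 months old and had been on their diet for 8 months. The labels give the genotype of the floxed mice as WT, and they name neither the Cre driver of the knockout nor the composition of the diets. Of the 12587 genes tested, 6986 (55.5%) had a fitted diet difference of the same sign in both genotypes, 3669 higher and 3317 lower on HF.

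As background, the liver on a long fat-rich diet is known to store triglyceride in hepatocytes, and in some animals it goes on to inflammation and scarring. Resident macrophages of the liver, the Kupffer cells, are then joined by macrophages that derive from blood monocytes, and stellate cells lay down collagen. Hepatocytes answer inflammatory cytokines by secreting acute phase proteins, a response carried mainly by the transcription factors STAT3, NF-kB and C/EBP.

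The gene of the acute phase protein lipocalin 2 (Lcn2), which binds bacterial iron carriers, was the gene that rose past the test. The promoter of Icam4, an adhesion molecule of red cells, is set beside it because Icam4 had the smallest p among protein-coding genes lower on HF, serially named loci left aside. Both are the 250 bases before the RefSeq start in GRCm38.p6, read along the gene, and capitals mark a C/EBP motif (TTGCNNAA).
Lcn2, chr2:32387740-32387989, minus strand: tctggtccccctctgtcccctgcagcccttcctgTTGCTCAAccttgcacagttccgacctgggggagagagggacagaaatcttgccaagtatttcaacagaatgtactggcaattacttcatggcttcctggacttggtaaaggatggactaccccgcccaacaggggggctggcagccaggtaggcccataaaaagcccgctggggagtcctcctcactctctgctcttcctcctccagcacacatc
Icam4, chr9:21029182-21029431, plus strand: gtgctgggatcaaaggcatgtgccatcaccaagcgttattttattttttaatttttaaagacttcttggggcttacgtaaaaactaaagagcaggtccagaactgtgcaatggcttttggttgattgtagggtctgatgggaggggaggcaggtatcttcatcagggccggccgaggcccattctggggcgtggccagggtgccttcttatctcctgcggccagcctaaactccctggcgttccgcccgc

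Searched on both strands, the Lcn2 window held the C/EBP letters 216 bases before the start and held no STAT letters (TTCNNNGAA). The Icam4 window held neither motif. Of 32851 RefSeq promoter windows of 250 bases, 9.6% held the C/EBP letters and 7.0% the STAT letters. A match of letters describes the sequence and shows no binding.

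The libraries were close in depth, at 16131506 to 16536016 estimated counts, so depth did not separate the diets. Expression is given below in FPKM, which scales fragments to gene length and to library size, and differences in log2 from edgeR on the counts with their standard errors. The hepatocyte marker Alb (albumin) was at 20593 to 72054 FPKM in HF livers and 29978 to 43610 FPKM in LF livers, as liver tissue has it. Thbs1, which encodes TSP1, was at 0.75, 0.75 and 0.31 FPKM in HF floxed, 0.16, 1.42 and 1.63 FPKM in HF knockout, 0.11, 0.06 and 0.07 FPKM in LF floxed and 0.08, 0.55 and 0.55 FPKM in LF knockout livers (2.02 ± 0.56 log2 for diet, edgeR adjusted p = 0.2). Mean Thbs1 was thus not lower in the knockout than in the floxed libraries on either diet, and because cells other than macrophages keep the gene in whole liver, these levels do not check the genotype labels. No label ties a library to an animal, so the p-values measure library-to-library spread only, which may be technical. LF knockout replicates 2 and 3 differed by over 1.5-fold at 2.0% of genes and HF floxed replicates 1 and 2 at 5.0%, against 14.8 to 50.5% for the other pairs within a group. Both pairs still differed by more than sampling noise and were kept as separate libraries, and with each pair averaged no gene passed the test. In whole liver, fewer cells of a type and less RNA per cell cannot be told apart.

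A single gene, Lcn2, passed the averaged diet test (0.00794% of the genes tested, edgeR adjusted p under 0.05), and the next smallest adjusted p was 0.2. At an unadjusted p under 0.05, 1811 genes (14.4%) had the same sign in both genotypes, of which 1231 (9.78%) were higher and 580 (4.61%) lower on HF. A further 107 genes at that p had opposite signs in the 2 genotypes. A small p for the average of both differences favours genes of equal sign. This split is therefore no measure of how far the genotypes shared the diet effect, and over all genes 55.5% had the same sign. With both diet differences at 1.5-fold or more, 736 genes remained, 623 higher and 113 lower. Over all genes the median difference was 0.01 log2. At the same adjusted threshold DESeq2 called 403 genes, 391 of them with the same sign in both genotypes, and limma voom with sample weights 608, 590 of them with the same sign. The same-sign calls of both tools shared 235 genes. On simulated counts with known changes, DESeq2 made 34 false calls, against 6 for edgeR and 2 for voom. Of the simulated 2-fold changes, edgeR recovered 53.7%, DESeq2 65.7% and voom 52.2%. The simulated libraries were drawn independently, without near-identical pairs, so these values do not decide between the tools here. Calls in this report are those of edgeR, and the gene differences other than that of Lcn2 are given as values. Of the 20 genes of smallest p, 10 in each direction, DESeq2 called 20 and voom 18 with the same sign in both genotypes. These 20 were picked from the same counts by small p and same sign, so those calls are no separate support. Below, list members counted at an unadjusted p under 0.05 also had the same sign in both genotypes. The shares of all genes to set beside each such count are 9.78% for higher and 4.61% for lower.

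**Figure D1:**
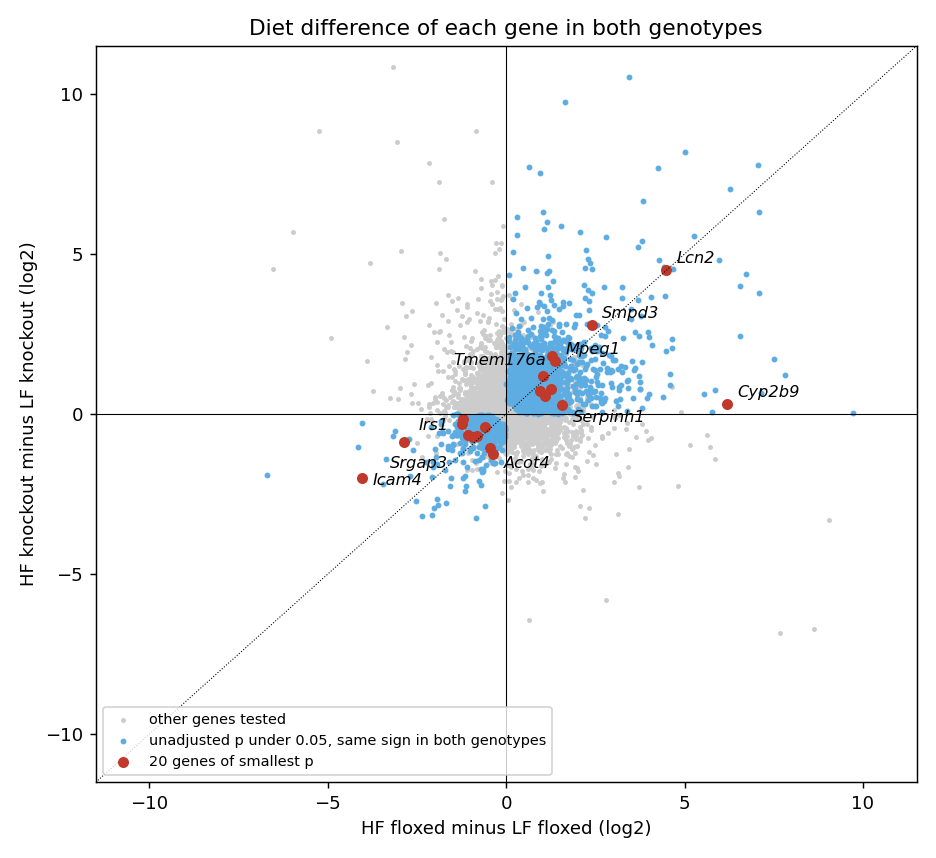
Diet difference (log2, HF minus LF) of every tested gene in floxed livers (horizontal axis) and in knockout livers (vertical axis). Blue points are the 1811 genes with an unadjusted p under 0.05 and the same sign in both genotypes, and red points are the 20 genes of smallest p. Lcn2 lies on the dotted line of equal differences, at 4.48 and 4.51, whereas Cyp2b9 lies far to the right, at 6.18 and 0.31.

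Lcn2 was at 159, 152 and 45.8 FPKM in HF floxed and 797, 707 and 293 FPKM in HF knockout livers, against 1.63, 6.89 and 4.37 FPKM in LF floxed and 10.6, 37.2 and 37.9 FPKM in LF knockout livers. The lowest HF library stood above the highest LF library. Lcn2 rose 22.6-fold on HF (log2 4.50 ± 0.50, edgeR adjusted p = 0.0201), by 4.48 log2 in floxed and 4.51 log2 in knockout livers. The edgeR interaction adjusted p was 0.995. The call was lost in 7 of 12 fits that left out 1 library, with log2 differences of 4.27 to 4.74 over the 12.

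Most acute phase genes were higher on HF. Of 20 tested, Lcn2 included, 18 were higher and 2 lower, and 10 (50.0%) were higher at an unadjusted p under 0.05 with the same sign in both genotypes, against 9.78% of all genes. Their median was 0.70 log2 (0.24 in floxed, 1.17 in knockout livers), and 0.38 log2 without HF knockout replicate 1. Steap4, a metalloreductase induced by inflammation, was at 51.1 to 83.7 FPKM in HF livers (median 71.1) and 15.1 to 61.7 FPKM in LF livers (median 33.9), a difference of 0.93 ± 0.19 log2 (edgeR adjusted p = 0.2). Only LF knockout replicates 2 and 3 reached the HF range of Steap4. The serum amyloid gene Saa1 was at 242, 264 and 138 FPKM in HF floxed and 3483, 21.8 and 419 FPKM in HF knockout livers, against 23.1, 25.3 and 29.4 FPKM in LF floxed and 43.0, 131 and 127 FPKM in LF knockout livers. Saa1 was highest in HF knockout replicate 1 and lowest in HF knockout replicate 2, so the knockout livers did not share 1 level. Its near copy Saa2 differed by 3.62 ± 0.96 log2, and how reads were split between the pair is not given. Hamp, which encodes the iron hormone hepcidin, ran the other way, at 11.04 to 1385 FPKM in HF livers and 530 to 3719 FPKM in LF livers (-2.37 ± 0.60 log2, edgeR adjusted p = 0.2). Lcn2 is also made by neutrophils. Of 14 neutrophil markers 8 were tested. At an unadjusted p under 0.05 with the same sign in both genotypes, 2 (25%) were higher, against 9.78% of all genes. These were Lcn2 and Ltf, the iron-binding granule protein lactoferrin (0.64 log2 in floxed, 7.73 log2 in knockout livers). S100a9, a calcium-binding protein of neutrophils, had opposite signs, at -0.29 log2 in floxed and 5.36 log2 in knockout livers. It was at 187 FPKM in HF knockout replicate 3, at 1.40 to 5.62 FPKM in the other HF livers and at 0.77 to 4.48 FPKM in LF livers. Without that library the neutrophil median was 0.58 log2, against 2.61 with it, and Lcn2 was higher by 4.68 log2. Ltf was then higher by 2.36 log2, against 4.18 log2 over all libraries.

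**Figure D2:**
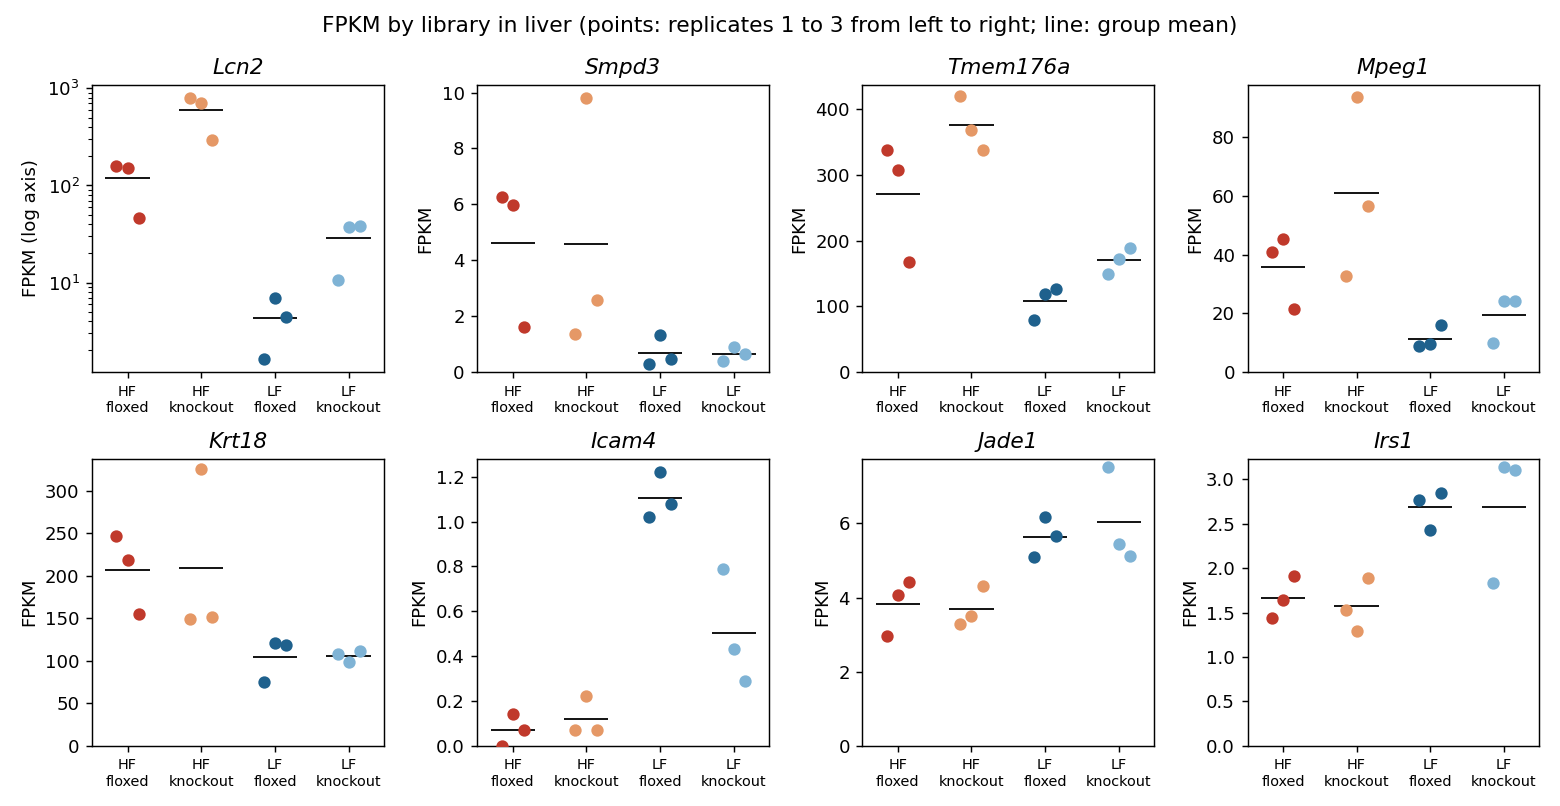
FPKM of 8 genes in every library, with HF groups left of LF groups, points for replicates 1 to 3 and a line at the group mean. Lcn2 is on a log axis and the others start at 0. Lcn2, Smpd3, Krt18, Icam4 and Jade1 do not overlap between diets, while Tmem176a, Mpeg1 and Irs1 do in at least 1 library.

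Most macrophage genes were higher on HF. All 20 tested members of the list for monocytes and lipid-associated macrophages had a higher fitted value, 16 of them in both genotypes, and 14 (70.0%) at an unadjusted p under 0.05, against 9.78% of all genes. Their median was 1.52 log2 (1.17 in floxed, 1.80 in knockout livers). Ms4a7, a membrane protein of recruited macrophages, was at 3.58, 3.18 and 1.18 FPKM in HF floxed and 1.99, 1.35 and 5.28 FPKM in HF knockout livers, against 0.53, 0.38 and 1.38 FPKM in LF floxed and 0.48, 0.29 and 0.48 FPKM in LF knockout livers. LF floxed replicate 3 was the LF library that overlapped the HF range (2.12 ± 0.44 log2). Trem2, a lipid receptor of such macrophages named after its values were seen, was at 1.79 to 7.56 FPKM in HF livers and 0.25 to 2.07 FPKM in LF livers, with log2 differences of 2.09 in floxed and 2.14 in knockout livers. Gpnmb, a lysosomal glycoprotein, had a log2 difference of 5.53 in floxed and 0.63 in knockout livers (edgeR interaction adjusted p = 0.396).

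Mpeg1, a pore-forming protein of phagocytes, was at 21.6 to 93.6 FPKM in HF livers and 8.75 to 24.2 FPKM in LF livers. The ranges overlapped through LF knockout replicates 2 and 3 (1.51 ± 0.28 log2, edgeR adjusted p = 0.2). Tmem176a, a membrane protein of antigen-presenting cells that hepatocytes also express, was at 338, 307 and 168 FPKM in HF floxed and 420, 368 and 338 FPKM in HF knockout livers, against 79.2, 119 and 127 FPKM in LF floxed and 149, 173 and 189 FPKM in LF knockout livers. HF floxed replicate 3 fell inside the LF range, and the log2 difference was 1.04 in floxed and 1.19 in knockout livers. Tmem176b, its neighbour on chromosome 6 on the opposite strand, differed by 0.99 ± 0.20 log2. Of 15 Kupffer cell genes 11 were higher, 7 of them in both genotypes, and 6 (40.0%) were at an unadjusted p under 0.05. Their median was 0.32 log2 (0.24 in floxed, 1.09 in knockout livers). It was 0.77 log2 without LF floxed replicate 3, 0.56 log2 without HF knockout replicate 2 and 0.22 log2 without LF knockout replicate 1. Adgre1, which encodes the macrophage marker F4/80, was at 2.28 to 11.1 FPKM in HF livers and 1.22 to 2.94 FPKM in LF livers (1.24 ± 0.38 log2). C1qb, a chain of complement C1q, differed by 1.07 ± 0.37 log2.

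Antigen presentation and cytokine genes were also higher on HF. All 8 tested MHC class II presentation genes were higher in both genotypes. Their median was 1.66 log2 in floxed and 0.44 log2 in knockout livers. At an unadjusted p under 0.05 were 7 of them (87.5%), against 9.78% of all genes. The unadjusted edgeR interaction p was under 0.05 for 4 of the 8, against 9.54% of all genes. H2-DMb1, a chain of the peptide loader H2-DM, was at 4.07 to 12.2 FPKM in HF livers and 1.93 to 4.25 FPKM in LF livers (1.08 ± 0.24 log2). H2-Aa, the alpha chain of the I-A molecule, was at 27.8 to 93.1 FPKM in HF livers and 11.9 to 38.0 FPKM in LF livers (1.03 ± 0.24 log2). The H2-Aa difference was 1.73 log2 in floxed and 0.34 log2 in knockout livers. Of 22 chemokine and cytokine genes 19 were higher and 12 (54.5%) were at an unadjusted p under 0.05, with a median of 0.92 log2. Il1rn, the antagonist of the interleukin 1 receptor, differed by 1.98 ± 0.46 log2. The interferon-induced chemokine gene Cxcl9 differed by 1.09 ± 0.29 log2 (1.78 log2 in floxed, 0.40 log2 in knockout livers). Of 24 interferon response genes 23 were higher and 9 (37.5%) were at an unadjusted p under 0.05, but their median was 1.15 log2 in floxed and 0.08 log2 in knockout livers. Isg15, a ubiquitin-like protein, was at 13.6 to 20.4 FPKM in HF livers and at 5.5 to 7.14 FPKM in LF floxed livers, while LF knockout livers were at 6.47, 16.6 and 17.01 FPKM. With LF knockout replicates 2 and 3 left out, the interferon median over both genotypes was 1.16 log2, against 0.56 with them, and it was 0.37 log2 without LF knockout replicate 1. Tnip1, which restrains NF-kB signalling, was at 3.75 to 7.25 FPKM in HF livers and 2.16 to 4.01 FPKM in LF livers (0.84 ± 0.16 log2). Sema4d, a semaphorin of immune cells, was at 0.49 to 1.94 FPKM in HF livers and 0.22 to 0.51 FPKM in LF livers (1.55 ± 0.30 log2).

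Matrix genes were higher on HF. The fitted value was higher for all 22 extracellular matrix genes, 16 of them in both genotypes. Of the 22, 12 (54.5%) were at an unadjusted p under 0.05, against 9.78% of all genes. The median of the list was 0.74 log2, at 1.21 log2 in floxed and 0.48 log2 in knockout livers. It was 1.14 log2 without LF knockout replicates 2 and 3. The basement membrane collagen genes Col4a1 and Col4a2 lie next to each other on chromosome 8 on opposite strands. Col4a2 was at 6.45, 5.51 and 3.15 FPKM in HF floxed and 1.55, 14.5 and 4.80 FPKM in HF knockout livers, against 1.17, 1.43 and 1.70 FPKM in LF floxed and 1.52, 2.50 and 2.66 FPKM in LF knockout livers. HF knockout replicate 1 alone lay in the LF range of Col4a2 (1.57 ± 0.39 log2), and Col4a1 differed by 1.51 ± 0.42 log2. Of 21 genes for collagen folding, cross-linking and matrix proteases 19 were higher and 10 (47.6%) were at an unadjusted p under 0.05. Serpinh1, the collagen chaperone, was at 14.8, 13.7 and 9.92 FPKM in HF floxed against 3.67, 2.82 and 4.21 FPKM in LF floxed livers, and at 4.68, 9.44 and 9.04 FPKM in HF knockout against 4.55, 7.54 and 7.17 FPKM in LF knockout livers. Its log2 difference was 1.57 in floxed and 0.27 in knockout livers (edgeR interaction adjusted p = 0.396). Lox, which cross-links collagen, was at 0.15 to 0.41 FPKM in HF livers and 0 to 0.15 FPKM in LF livers (2.39 ± 0.54 log2). Tgm2, a transglutaminase, was at 41.8 to 94.2 FPKM in HF livers and 27.4 to 50.1 FPKM in LF livers (0.84 ± 0.16 log2). Tgfb1, the growth factor TGF-beta 1 that TSP1 can release from its latent form, differed by 0.80 ± 0.23 log2. The Tgfb1 difference was 0.35 log2 in floxed and 1.25 log2 in knockout livers. Of 18 stellate cell genes 6 (33.3%) were higher at an unadjusted p under 0.05, and their median in knockout livers was 0 log2.

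Cell cycle genes and fetal liver and tumour markers were higher in most but not all HF livers. Of 18 cell cycle genes 16 were higher and 12 (66.7%) were at an unadjusted p under 0.05, against 9.78% of all genes. The median of the list was 1.52 log2 in floxed and 1.32 log2 in knockout livers. Without HF knockout replicate 2 the averaged median of the list was 0.83 log2, against 1.59 with it. Mki67, the proliferation marker Ki-67, was at 1.22, 1.33 and 0.17 FPKM in HF floxed and 0.25, 3.03 and 1.37 FPKM in HF knockout livers, against 0.07, 0.15 and 0.19 FPKM in LF floxed and 0.16, 0.53 and 0.46 FPKM in LF knockout livers. HF floxed replicate 3 and HF knockout replicate 1 were inside the LF range of Mki67 (2.19 ± 0.60 log2). All 16 tested fetal and tumour markers had a higher fitted value, and 10 (62.5%) were at an unadjusted p under 0.05. Anxa2, a membrane-binding annexin, was at 6.49 to 146 FPKM in HF livers and 4.98 to 38.2 FPKM in LF livers (2.46 ± 0.55 log2). Ly6d, a lipid-anchored surface protein, was at 316, 307 and 4.19 FPKM in HF floxed and 1.62, 568 and 19.6 FPKM in HF knockout livers, against 1.06 to 13.9 FPKM in LF livers. The summed level of this list was 1741 FPKM in HF knockout replicate 2, 64.0 to 793 FPKM in the other HF livers and 51.1 to 144 FPKM in LF livers. Afp and Gpc3, both named after their values were seen, were at 30.0 and 101 FPKM in HF knockout replicate 2 and below 1 FPKM in all other libraries. Without that library the list's median was 0.58 log2, against 1.72 with it.

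**Figure D3:**
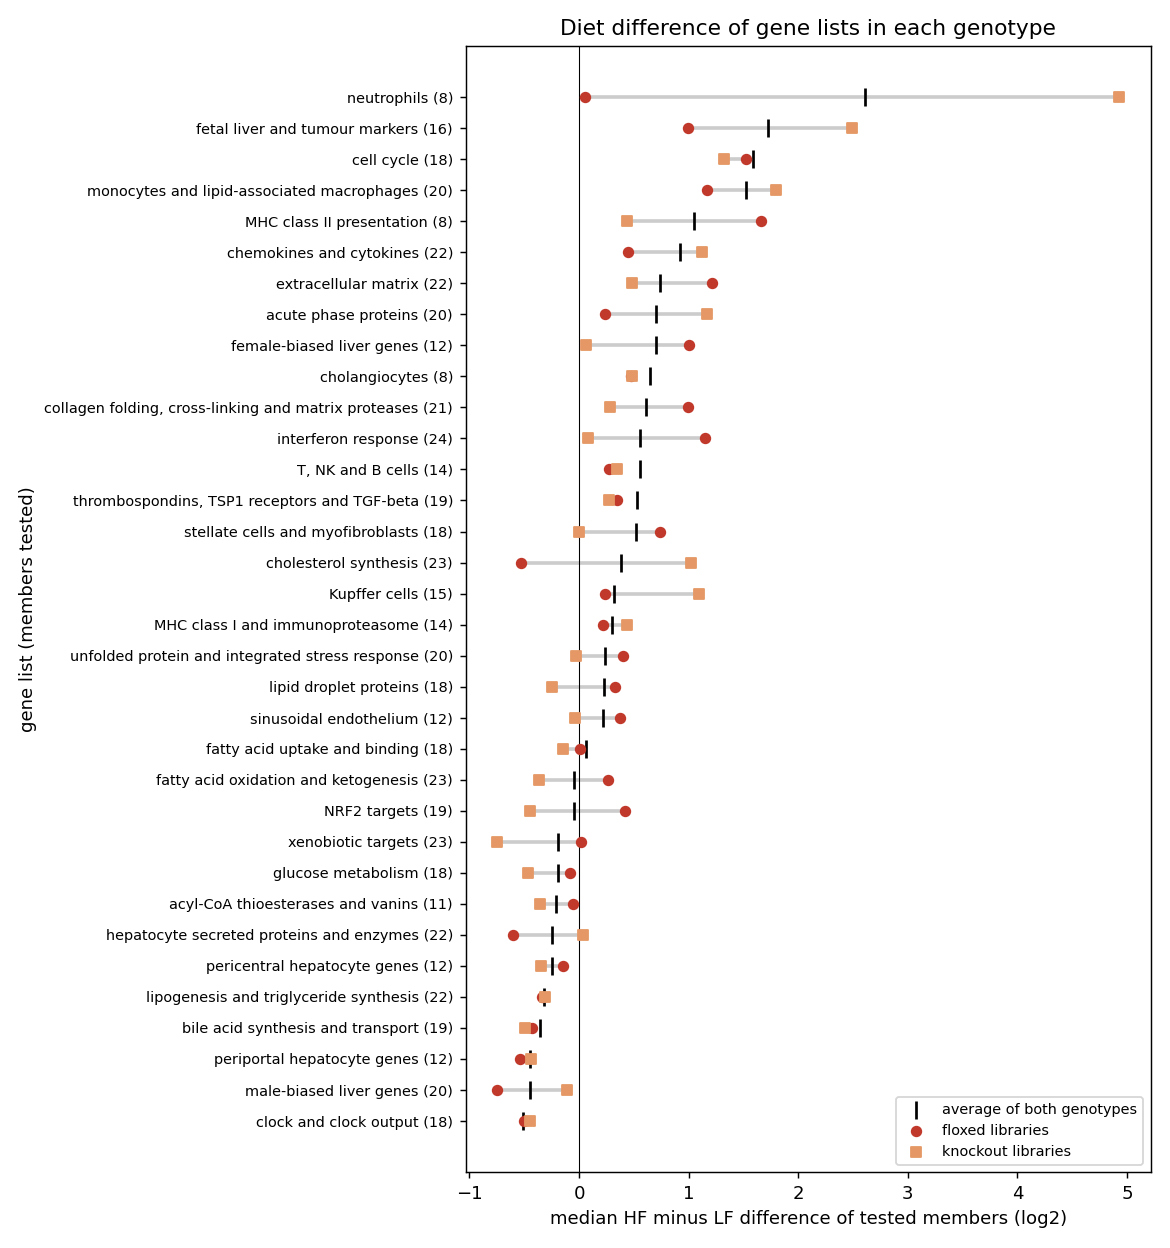
Median diet difference (log2, HF minus LF) of the tested members of each gene list with at least 8 of them, in floxed livers (circles), in knockout livers (squares) and averaged (bars), ordered by the average. The monocyte and cell cycle lists are above 1 in both genotypes, the neutrophil list is near 0 in floxed livers and 4.93 in knockout livers, and the lipogenesis, bile acid and clock lists are below 0 in both.

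Markers of other cell types varied with single libraries as well as with diet, and their part in the differences above was not tested. The summed level of 17 T, NK and B cell markers was 6.71 to 20.2 FPKM in HF livers and 5.04 to 11.1 FPKM in LF livers. The 14 of them that were tested had a median difference of 0.56 log2. Ltb, the lymphotoxin beta gene, differed by 1.32 ± 0.46 log2. Sinusoidal endothelium markers summed to 36.7 to 137 FPKM in HF livers and 57 to 105 FPKM in LF livers, with a median of 0.22 log2 that ranged over 0.05 to 0.45 log2 without single HF knockout libraries and was 0.13 log2 without LF floxed replicate 2. Lyve1, a hyaluronan receptor of these cells, was at 0.40 to 8.31 FPKM in HF livers and 0.34 to 1.44 FPKM in LF livers (2.04 ± 0.50 log2). The cholangiocyte sum reached 768 FPKM in HF knockout replicate 2, mostly through osteopontin (Spp1, 743 FPKM), and was 33.0 to 119 FPKM in the other HF livers and 28.9 to 44.5 FPKM in LF livers. Adipocyte markers, of which 3 were tested, summed to 6.69 to 119 FPKM in HF livers and 5.18 to 59.7 FPKM in LF livers. Their median was 2.48 log2 (4.90 in floxed, 0.07 in knockout livers) and 0.85 log2 without HF knockout replicate 3, and the fatty acid binding protein gene Fabp4 differed by 1.07 ± 0.36 log2. Erythroid markers summed to 794 to 1729 FPKM in HF livers and 573 to 2431 FPKM in LF livers. Among them Alas2, the heme synthesis enzyme of red cells, differed by -0.57 ± 0.38 log2.

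Lists of hepatocyte metabolism did not share a direction. Of 23 cholesterol synthesis genes 17 were higher, 3 of them in both genotypes, with a median of -0.53 log2 in floxed and 1.02 log2 in knockout livers. Their averaged median was 0.38 log2, but -0.11 log2 without HF knockout replicate 2, 0.18 log2 without LF floxed replicate 1 and 0.58 log2 without LF floxed replicate 2. Mvk, mevalonate kinase, differed by -0.19 log2 in floxed and 2.09 log2 in knockout livers, and Srebf2, the sterol-sensing factor, by 0.46 ± 0.19 log2 on average. Of 18 lipid droplet genes 10 were higher and 8 lower, and of 18 genes for fatty acid uptake and binding 9 were higher and 9 lower. Of 22 genes for lipogenesis and triglyceride synthesis 16 were lower and 5 (22.7%) were lower at an unadjusted p under 0.05 with the same sign in both genotypes, against 4.61% of all genes. Their median was -0.34 log2 in floxed and -0.31 log2 in knockout livers. The averaged median of -0.32 log2 was -0.08 log2 without LF knockout replicate 1 and -0.19 log2 without LF floxed replicate 2. Mlxipl, the carbohydrate-sensing factor ChREBP, was at 30.3, 29.3 and 17.1 FPKM in HF floxed and 24.1, 28.1 and 33.1 FPKM in HF knockout livers, against 53.9, 47.4 and 46.2 FPKM in LF floxed and 47.2, 30.4 and 29.4 FPKM in LF knockout livers. LF knockout replicates 2 and 3 lay within the HF range of Mlxipl (-0.78 ± 0.17 log2). Thrsp, a lipogenic regulator, was at 32.0 to 183 FPKM in HF livers and 123 to 372 FPKM in LF livers (-1.24 ± 0.36 log2).

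Irs1, the adaptor of the insulin receptor, was at 1.44, 1.64 and 1.91 FPKM in HF floxed and 1.53, 1.29 and 1.89 FPKM in HF knockout livers, against 2.77, 2.43 and 2.85 FPKM in LF floxed and 1.83, 3.14 and 3.10 FPKM in LF knockout livers. LF knockout replicate 1 alone reached the HF range (-0.83 ± 0.17 log2, edgeR adjusted p = 0.2). Slc25a25, a mitochondrial carrier of ATP-Mg and phosphate, was at 17.4 to 29.3 FPKM in HF livers and 28.4 to 59.8 FPKM in LF livers (-0.86 ± 0.17 log2). Acot4, a peroxisomal acyl-CoA thioesterase, differed by -0.36 log2 in floxed and -1.24 log2 in knockout livers. Fzd7, a Wnt receptor, differed by -0.49 ± 0.11 log2 and Pgap1, which remodels GPI anchors, by -0.76 ± 0.17 log2. Zfp395 was at -1.21 log2 in floxed and -0.16 log2 in knockout livers, and Srgap3 was at 0.03 to 0.06 FPKM in HF livers and 0.03 to 0.47 FPKM in LF livers.

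Of 19 genes for bile acid synthesis and transport 17 were lower. At an unadjusted p under 0.05, 3 (15.8%) were lower, against 4.61% of all genes. The list had a median of -0.36 log2. That median was -0.21 log2 without HF knockout replicate 2, -0.60 log2 without HF floxed replicate 3 and -0.66 log2 without HF knockout replicate 1. Abcg5, a subunit of the exporter of sterols into bile, was at 20.5 to 30.5 FPKM in HF livers and 26.7 to 38.4 FPKM in LF livers (-0.62 ± 0.17 log2). The bile salt export pump gene Abcb11 was at 28.5 to 84.9 FPKM in HF livers and 84.8 to 106 FPKM in LF livers (-0.63 ± 0.24 log2). Of 20 male-biased liver genes 16 were lower and 4 (20%) at an unadjusted p under 0.05, against 4.61% of all genes. Their median of -0.45 log2 was -1.20 log2 without HF knockout replicate 1 and -0.21 log2 without HF knockout replicate 2. It was 0.05 log2 without HF floxed replicate 2, LF knockout replicate 3 and HF knockout replicate 2. Their summed level was 54877 FPKM in HF knockout replicate 1 and 2554 FPKM in HF knockout replicate 2, against 17461 to 50010 FPKM in LF livers. The pheromone-binding urinary protein gene Mup20, whose family shares near-identical copies, differed by -1.01 ± 0.32 log2. Of 18 clock genes 14 were lower and 5 (27.8%) at an unadjusted p under 0.05, against 4.61% of all genes. Dbp, an output gene of the clock, was at 2.44, 2.39 and 4.97 FPKM in HF floxed and 34.1, 3.97 and 2.64 FPKM in HF knockout livers, against 1.98, 90.8 and 57.9 FPKM in LF floxed and 84.2, 4.24 and 5.03 FPKM in LF knockout livers. High and low Dbp occurred within both diets, 1 of 6 HF libraries and 3 of 6 LF libraries being above 30 FPKM. The labels give no time of harvest. With a clock gene score as a covariate no gene passed the test and Lcn2 was higher by 4.57 log2 (edgeR adjusted p = 0.0893).

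Separation of the diets was also read without a model. In 13 genes (0.103%) the lowest of the 6 HF libraries exceeded the highest of the 6 LF libraries, both in FPKM and in counts scaled to library size, and in 10 genes (0.0794%) all 6 lay below. The choice of scale mattered, since 103 genes separated in scaled counts and 57 in FPKM, both directions together. How many genes unrelated labels would separate was not worked out, so these counts are no test of diet. The 13 higher genes were Lcn2, Smpd3, Cx3cr1, Ptpro, Twf2, Veph1, Hilpda, Ptp4a3, Nkg7, Gng2, Krt18, Fam206a and Pigo. Smpd3, the neutral sphingomyelinase 2 that makes ceramide, was at 6.28, 5.99 and 1.61 FPKM in HF floxed and 1.37, 9.80 and 2.58 FPKM in HF knockout livers, against 0.30, 1.31 and 0.47 FPKM in LF floxed and 0.39, 0.89 and 0.66 FPKM in LF knockout livers (2.58 ± 0.51 log2). The gap was narrow, between 1.37 and 1.31 FPKM. Cx3cr1, the fractalkine receptor of monocytes, was at 0.80 to 2.70 FPKM in HF livers and 0.05 to 0.71 FPKM in LF livers (2.15 ± 0.47 log2). Nkg7, a granule protein of cytotoxic lymphocytes, was at 1.12 to 2.51 FPKM in HF livers and 0.40 to 0.98 FPKM in LF livers.

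Hilpda, a lipid droplet protein that inhibits triglyceride breakdown, was at 6.24, 5.37 and 2.09 FPKM in HF floxed and 2.25, 7.81 and 2.24 FPKM in HF knockout livers, against 1.36, 1.64 and 1.27 FPKM in LF floxed and 1.65, 2.05 and 1.39 FPKM in LF knockout livers (1.34 ± 0.36 log2). Among 18 lipid droplet genes it was the 1 higher at an unadjusted p under 0.05 in both genotypes, 5.6% of the list against 9.78% of all genes. Krt18, a keratin of hepatocytes and bile duct cells, was at 150 to 325 FPKM in HF livers and 74.9 to 121 FPKM in LF livers (0.85 ± 0.21 log2). Its partner Krt8, the adjacent gene on chromosome 15, differed by 0.89 ± 0.18 log2 but overlapped, at 107 to 302 FPKM in HF livers and 71.3 to 123 FPKM in LF livers.

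The 10 genes with all HF libraries below were Icam4, Jade1, Etnppl, Slc17a2, Zc3h14, Ggnbp1, Usp49, Rpp40 and the loci D130043K22Rik and Gm11127. Icam4, whose promoter is printed above, was at 0, 0.14 and 0.07 FPKM in HF floxed and 0.07, 0.22 and 0.07 FPKM in HF knockout livers, against 1.02, 1.22 and 1.08 FPKM in LF floxed and 0.79, 0.43 and 0.29 FPKM in LF knockout livers (-3.02 ± 0.55 log2, edgeR adjusted p = 0.2). Jade1, a subunit of a histone acetyltransferase complex, was at 2.96 to 4.43 FPKM in HF livers and 5.09 to 7.52 FPKM in LF livers (-0.74 ± 0.17 log2). Etnppl, which breaks down phosphoethanolamine, was at 11.99, 12.7 and 16.6 FPKM in HF floxed and 2.24, 0.17 and 11.5 FPKM in HF knockout livers, against 45.6, 19.2 and 38.7 FPKM in LF floxed and 23.7, 20.2 and 19.9 FPKM in LF knockout livers (-1.91 ± 0.60 log2). Slc17a2, a phosphate transporter, was at 7.39 to 28.9 FPKM in HF livers and 34.2 to 59.1 FPKM in LF livers (-1.13 ± 0.28 log2). For these genes the log2 differences of both genotypes lay on the same side of 0 by construction.

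**Figure D4:**
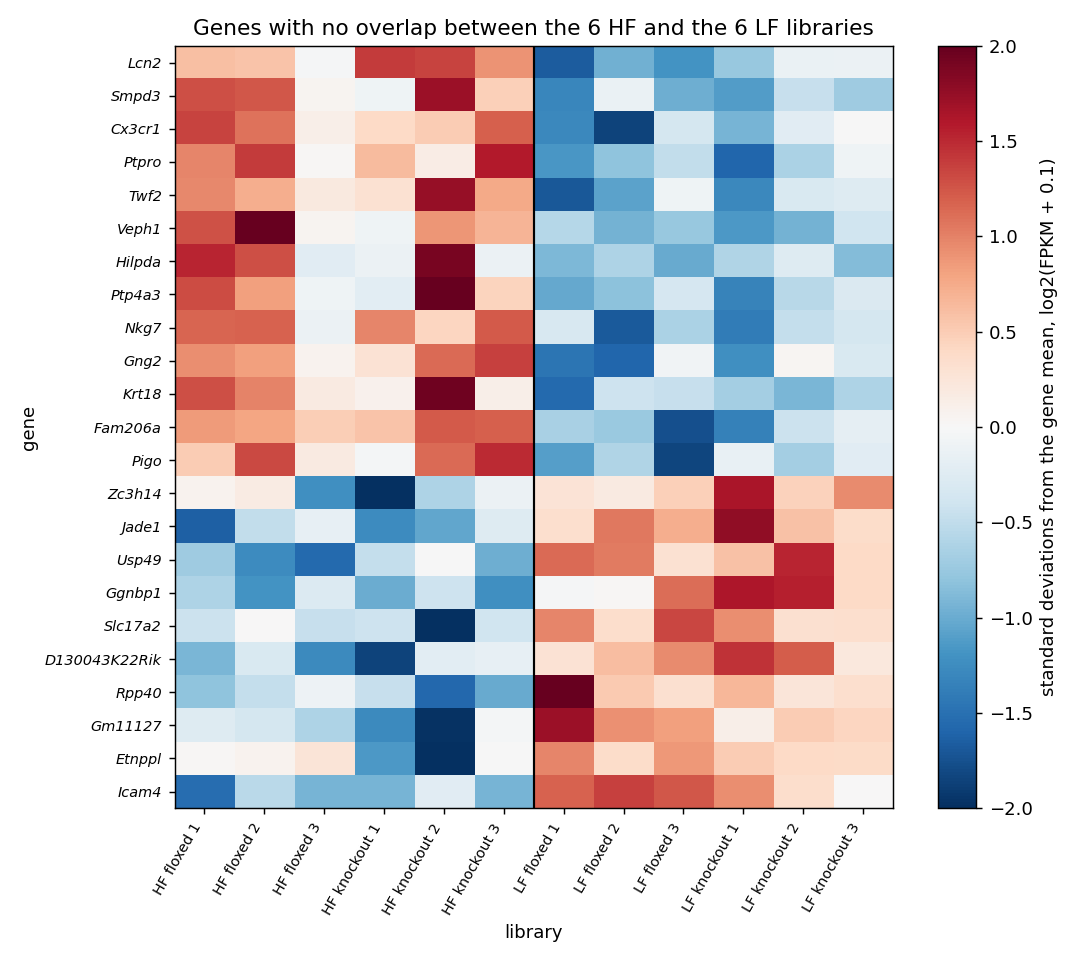
Levels of the 23 genes without overlap between diets, one row per gene, with the 6 HF libraries left of the black line and the 6 LF libraries right of it. Colour gives the distance from the gene's mean over the 12 libraries in standard deviations of log2(FPKM + 0.1), from blue (low) to red (high). HF knockout replicate 2 and HF floxed replicates 1 and 2 hold many of the darkest red cells of the upper rows.

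Some genes of lipid handling had unlike fitted diet differences in the 2 genotypes, though the interaction of none of those named here passed the test. Cyp2b9, a cytochrome P450 of lipid-laden liver whose near copies share sequence, was second in p among genes higher on HF. It was at 44.3, 46.2 and 36.0 FPKM in HF floxed against 0.71, 0.43 and 0.35 FPKM in LF floxed livers, and at 45.7, 116 and 71.2 FPKM in HF knockout against 8.47, 96.9 and 94.5 FPKM in LF knockout livers (edgeR interaction adjusted p = 0.24). Cidea, a lipid droplet fusion protein, was at 68.2, 60.6 and 27.4 FPKM in HF floxed against 0, 0.11 and 0.11 FPKM in LF floxed livers, and at 0, 7.89 and 2.32 FPKM in HF knockout against 0.61, 47.2 and 52.4 FPKM in LF knockout livers. Cd36, the fatty acid translocase, had log2 differences of 3.81 in floxed and -0.31 in knockout livers (edgeR interaction adjusted p = 0.396), with 36.0 and 36.2 FPKM in LF knockout replicates 2 and 3 against 1.85 to 16.4 FPKM in the other LF livers. The interaction passed the test for 2 genes (0.0159%), neither of them among those above. Of the 1918 genes at an unadjusted diet p under 0.05, 226 also had an unadjusted interaction p under 0.05. Over all 12587 genes tested, 1201 (9.54%) had such an interaction p, and the shares were not compared by a test.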

How the data were processed

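BGI sequenced 12 libraries of total RNA from frozen mouse liver, per the labels' protocols. The submitters' processing notes name build mm9. No aligner or counter is given in the sources used here. Estimated counts (expected counts) were deposited by the authors per gene and library, unscaled. The FPKM values beside them were computed by the authors. Genes absent from a file (3825 in at least 1) were taken as 0. The 1229 loci without a gene name held 6.65 to 17.33% of counts and were left out.

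Estimated counts were rounded and fitted with edgeR 4.0.16 in R 4.3.3: TMM factors, filterByExpr by the 4 groups (12587 genes), 1 mean per group, quasi-likelihood F tests and Benjamini-Hochberg adjustment at 5%. The pipeline was tested on simulated data. Alternatives used DESeq2 1.42.0, limma 3.58.1, other filters and libraries left out. Members and gene lists were chosen with earlier results of these data known. In each direction, the 10 protein-coding genes with the smallest p and the same sign in both genotypes were named, with the 2 of smallest p from each list described and Thbs1. The separated genes, Ltf, Trem2, Saa1, Saa2, Hamp, Krt8, Tmem176b, Afp and Gpc3 were named after their values were seen, and 2 genes named by the rule are not reported here. Members of lists that failed the filter on low counts are not in the counts, and a gene can pass it through the group where it is high. Positions follow RefSeq GRCm38.p6, not the files' build.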

Additional observations from a re-analysis of the deposited data

Results flagged for a closer look

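The diet difference itself differed between genotypes, past the edgeR interaction test over all genes, for 2 genes. Morf4l1b, whose symbol marks it as a relative of Morf4l1, was at 4.52, 5.38 and 5.37 FPKM in HF floxed against 15.7, 10.9 and 12.3 FPKM in LF floxed livers, and at 10.4, 11.8 and 16.4 FPKM in HF knockout against 4.98, 4.81 and 3.90 FPKM in LF knockout livers. Its interaction was 3.11 log2 (edgeR adjusted p = 0.00452). The HF libraries were all lower in floxed and all higher in knockout livers, and a split of reads between related genes was not tested. Gnai1, an inhibitory G protein subunit, was at 2.58, 2.70 and 1.68 FPKM in HF floxed against 0.26, 0.14 and 0.25 FPKM in LF floxed livers, and at 0.19, 0.08 and 0.04 FPKM in HF knockout against 0.54, 1.39 and 1.06 FPKM in LF knockout livers. Its interaction was -6.26 log2 (edgeR adjusted p = 0.0358). With near-identical libraries averaged, 0 genes passed the interaction test.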

How the results depend on the processing

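The count of 1 called gene with the same sign in both genotypes became 391 with DESeq2, 590 with limma voom and sample weights, 672 without the pair HF floxed replicate 3 and HF knockout replicate 1, whose files carry another style of name, and 2 with unnamed loci kept. It became 0 when a clock gene score entered as covariate and with near-identical libraries averaged. Deviations from the group mean correlated at -0.33 to 0.40 between same-numbered libraries. With 3 libraries per group this cannot decide whether replicate numbers pair the libraries. With replicate number as a block the count was 0 and the interaction count 1. The interaction count of 2 became 107 with DESeq2 and 0 with near-identical libraries averaged. Leaving out each library gave 0 to 7 called genes and 1 to 17 interaction genes. In 2 settings chosen after seeing the data, the count was 2 without LF knockout replicates 2 and 3, and 0 without HF knockout replicate 2, HF floxed replicate 2 and LF knockout replicate 3. The cause of these changes was not tested.

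Lcn2 was higher in all 28 alternatives, by 4.05 to 5.15 log2, and its call was lost in 12 of them. Its adjusted p was 0.13 with the block, 0.485 with averaged libraries, 0.148 and 0.46 in the 2 added settings, and 0.0514 to 0.144 in the 7 leave-one-out fits that lost it. Thbs1 passed with DESeq2 (2.03 log2, adjusted p = 0.0199) and without the libraries of other file names (2.39 log2, adjusted p = 0.0241). None of the 20 genes of smallest p changed direction, but they were picked for their small p in these same counts. Gpc3 ranged over -1.34 to 4.17 log2 when each library was left out, lowest without HF knockout replicate 2, and was at -1.37 log2 without 3 libraries and -0.05 log2 with voom.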
